A study of Mus musculus with 8 samples.

Results

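The genes described here are the potassium channel subunits and the subunits of the sodium-potassium pump in the renal cortex of aged and young mice. They were chosen by symbol, as every gene whose symbol starts with Kcn, further letters and a number, or which reads Atp1 and a letter for a pump subunit, or Fxyd, followed by a number, with the antisense transcript Kcnq1ot1 left out. The rule found 108 of the 22609 genes counted, 93 for channels and 15 for the pump. The rule used no expression value. Changes are reported for the 58 members with at least 10 counts in 4 or more libraries, and 57 of these also passed the filter of the test. Of the other 50 members, 8 had 0 counts in every library, 26 had 1 to 14 counts over all libraries together, and 16 had 15 counts or more.

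Renal cortex RNA of male C57BL6 mice, 4 aged and 4 young, was sequenced after depletion of ribosomal RNA, with 1 library per mouse. The labels give an age of 30 months for the aged group and of about 5 months for the young group, and no mouse of either group was treated. The study's methods give a somewhat higher mean age for the aged mice than the labels do. Read pairs counted on genes numbered between 14820804 and 19018543 in the aged libraries and between 15152597 and 19821429 in the young libraries, so that 3 counts, taken as the floor of detection, corresponded to 0.147 to 0.204 CPM, counts scaled by the TMM effective library size. This floor covers counting error only. The mice are 1 strain and 1 sex, and tissue RNA was measured, so fewer cells of a type and less RNA per cell cannot be told apart. Markers fixed for the proximal tubule, thick ascending limb, distal convoluted tubule and collecting duct all passed the filter on low counts, 32 of 32 genes. Aged mouse 1 stood apart from the other libraries. The summed level of 10 proximal tubule markers was 15700 CPM in that mouse, between 23000 and 25800 CPM in the other aged mice, and between 23100 and 27400 CPM in the young mice. The markers did not all move together in aged mouse 1. Lrp2 was lowest there, at 3860 CPM against 8730 to 11200 in the other mice. Pck1 was highest there, at 4710 CPM against 1020 to 2480 in the other mice. Several results are therefore also given without that mouse. Values of single mice are listed in the order of the mouse numbers in the labels, which state no further meaning for these numbers.

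The sodium-potassium pump sits on the basolateral membrane of tubule cells, where it hydrolyzes ATP to move sodium out of the cell and potassium in. The beta subunit is needed to bring the pump to the membrane, and small FXYD proteins modulate the pump. Potassium that the pump brings in leaves again through potassium channels, which set the membrane voltage, recycle potassium for the pump and for sodium transport, and in the distal nephron secrete potassium into urine. Channel subunits fall into the inward rectifiers (Kcnj), the two-pore channels (Kcnk), the voltage-gated channels, the channels gated by calcium or sodium, and accessory subunits that form no pore.

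Levels were compared between genes only per transcript length, as FPKM, computed here as the CPM per kilobase of the longest coding transcript. The pump genes Fxyd2 and Atp1b1 were above every channel gene in level. Fxyd2, the gamma subunit of the renal pump, was at 1450 ± 266 FPKM in the aged mice and 1720 ± 47.2 in the young mice (mean ± SD, n = 4 each, as in all values of this form below). Atp1b1, the main beta subunit of tubule cells, was at 933 ± 78.0 and 1180 ± 23.5 FPKM. Atp1b1 was below Fxyd2 in each mouse.

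Among the channels, 4 inward rectifiers of the tubule held between 80.8% and 86.1% of the channel FPKM in each library. Kcnj15, a basolateral channel of the proximal tubule, was at 276 ± 62.6 FPKM in the aged and 325 ± 17.6 in the young mice, and Kcnj16, the partner of Kcnj10 and Kcnj15, was at 207 ± 40.0 and 270 ± 2.85 FPKM. Kcnj1, the secretory channel ROMK of the apical membrane, followed with 84.4 ± 13.9 and 95.8 ± 9.87 FPKM. Kcnj10, the basolateral channel of the distal convoluted tubule, was at 20 ± 0.781 and 23.0 ± 2.23 FPKM. These 4 genes kept the order Kcnj15, Kcnj16, Kcnj1 and Kcnj10 by group mean, with Kcnj15 and Kcnj16 overlapping in the aged mice. Kcnk5, a two-pore channel opened by alkaline pH in the proximal tubule, ranged from 62.9 to 105 FPKM in the young mice, which overlapped Kcnj1, and from 23.9 to 46.9 FPKM in the aged mice, which overlapped Atp1b3 at 37.4 to 48.1 FPKM.

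**Figure D1:**
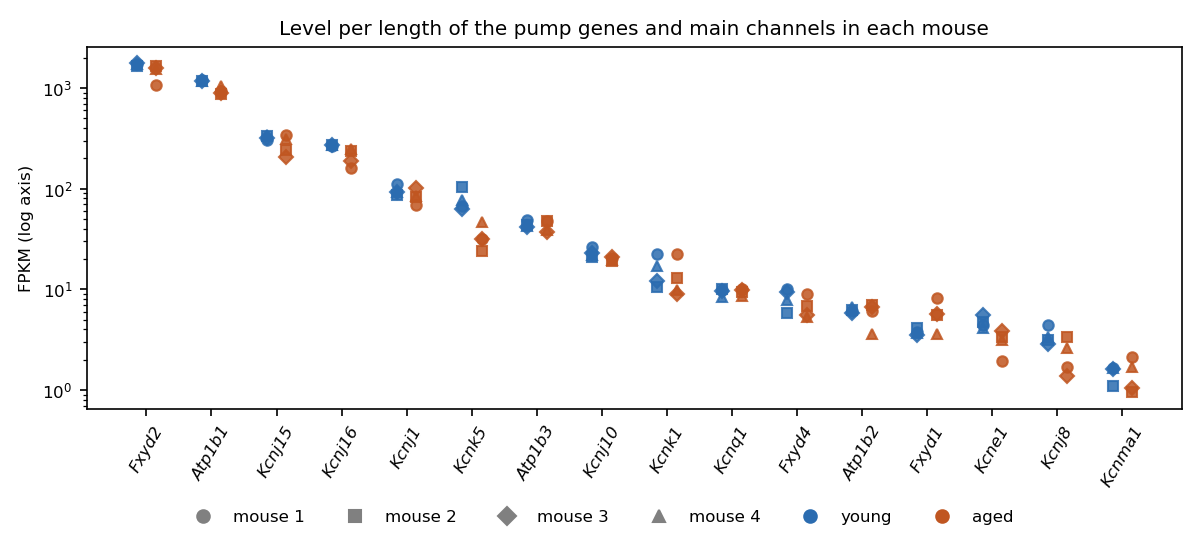
Level of pump and channel genes in each mouse, in FPKM on a log axis, ordered by the mean over all mice, with the named kidney genes shown; each symbol is 1 mouse. Fxyd2 and Atp1b1 lie above every channel, and Kcnk5 lies between 62.9 and 105 FPKM in the young and between 23.9 and 46.9 FPKM in the aged mice.

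Among the beta subunits and among the FXYD genes a single gene held most of the transcripts. Atp1b1 made up 94.1% to 96.1% of the beta subunit FPKM, and Fxyd2 97.7% to 99.1% of the FXYD FPKM. The other beta and FXYD genes were a small share of their class in both groups.

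The age groups were compared with the quasi-likelihood test of edgeR, and p was adjusted over all 13944 genes tested (Benjamini-Hochberg). Called genes are those with a fold change above 1.5 whose adjusted p was below 0.05. Of the 57 tested members 5 were called, which is 8.77%, where 2.06% of all genes tested were called. Kcns1 and Kcnip2 were higher in the aged mice, where 1.17% of all genes were called higher, and Kcnk5, Kcnh1 and Kcnh5 were lower, where 0.889% of all genes were called lower. Kcns1 and Kcnip2 reached 10 counts in every aged library but not in every young library. Kcnh1 did so in every young library but not in every aged library. Their passing the count filter thus rested on the group where they were high, which limits these 3 calls. The adjusted p alone, without a fold threshold, gave the same 5 members, against 2.95% of all genes. The median log2 fold change was 0.03 over the members and 0.03 over all genes tested. An unadjusted p below 0.05 was found for 24 members (42.1%) and for 25.5% of all genes. The groups did not overlap for 18 members (31.6%), 5 higher and 13 lower in the aged mice, and for 18.9% of all genes.

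**Figure D2:**
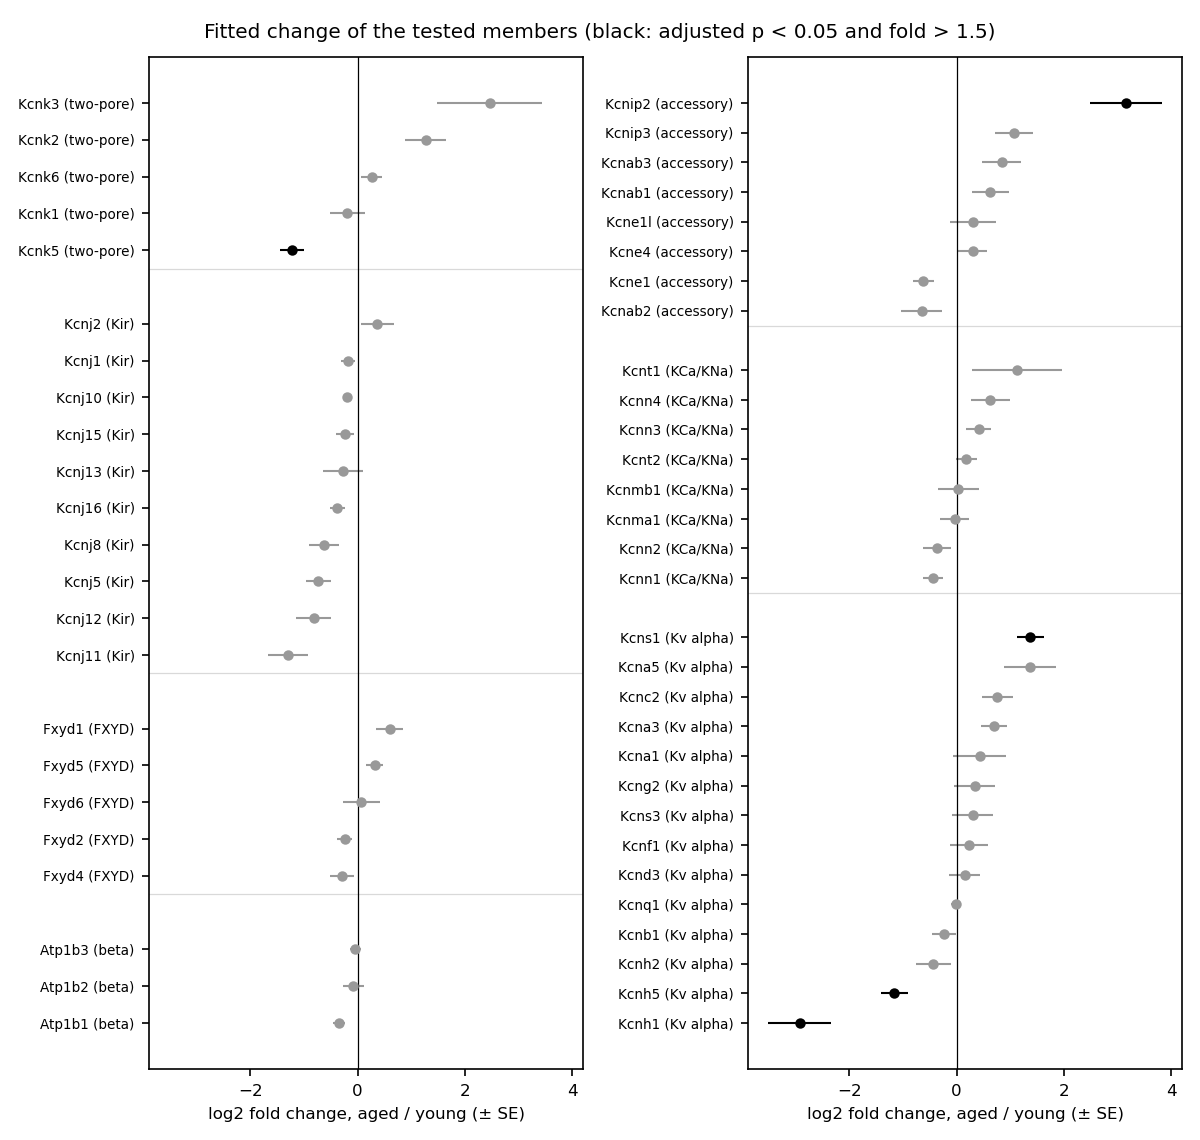
Log2 fold change, aged over young, of 53 of the 57 tested members with its standard error, grouped by class. Black points are the 5 called members, from Kcnip2 at 3.16 to Kcnh1 at -2.92, and grey points did not pass the thresholds.

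The 5 calls depended on single mice. No member was called when aged mouse 2, aged mouse 3, young mouse 1, young mouse 3 or young mouse 4 was left out. Between 18 and 25 members then had an unadjusted p below 0.05 in edgeR. The share of all genes at that p in these fits is not given here, so these counts cannot be judged against it. With all mice it was 25.5%, against 42.1% of the members. With young mouse 2 left out 2 were called (0.248% of all genes), with aged mouse 1 left out 6 (3.17%), and with aged mouse 4 left out 7 (5.21%). Each of these counts includes Kcng1, which passed the filter only through the young mice. The calls over all genes also moved, from 287 to between 8 and 35 without 1 young mouse, to 119 and 115 without aged mouse 2 and aged mouse 3, and to 444 and 733 without aged mouse 1 and aged mouse 4. DESeq2 called 11 members, where it called 6.26% of all genes, and limma-voom called 3, Kcnip2, Kcnk5 and Kcns1, where it called 3.46% of all genes.

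Kcnk5 (chromosome 14, 20959280 to 21001004 of mm9, minus strand, with 5 exons in the longest coding transcript) had the highest level of the called members. Its level was 105, 80.5, 105 and 158 CPM in the 4 aged mice, against 224, 353, 212 and 257 CPM in the 4 young mice. Every aged mouse was below every young mouse, with aged mouse 2 lowest and young mouse 2 highest. The fold was 2.33 lower in the aged mice (log2 fold change -1.22, SE 0.23, edgeR adjusted p = 0.0372). Proximal tubule markers, which mark the cells known to express Kcnk5, were not called in 10 of 10 genes by edgeR, while DESeq2 called 2 and limma-voom 2. In edgeR 2 had an unadjusted p below 0.05, as had 25.5% of all genes. Of these, Slc22a6 was lower in the aged mice without overlap (log2 fold change -0.90, SE 0.29, edgeR adjusted p = 0.107). Slc5a12 was higher and overlapped (log2 fold change 0.75, SE 0.27, edgeR adjusted p = 0.128). The part of proximal tubule cells in the change in Kcnk5 was not tested. Without aged mouse 1, the library with the lowest proximal tubule sum, the change in Kcnk5 was -1.19 (SE 0.25, edgeR adjusted p = 0.0354). Kcnk5 made up 66.6% ± 13.4 of the two-pore channel FPKM in the aged and 81.5% ± 6.75 in the young mice. These shares overlapped, at 51.3% to 80.3% in the aged and 73.5% to 90% in the young mice, with aged mouse 1 lowest.

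Kcnh1 and Kcnh5 code for the ether-a-go-go channels, voltage-gated channels known mainly from brain. Kcnh1 (chromosome 1, 194014666 to 194334041, plus strand) had 13, 8, 11 and 26 counts in the 4 aged mice, against 126, 33, 58 and 183 counts in the 4 young mice, or 0.791 ± 0.420 and 6.07 ± 4.02 CPM. Young mouse 2 was the lowest of the young mice and still above each aged mouse. The fold was 7.58 lower in aged mice (log2 fold change -2.92, SE 0.59, edgeR adjusted p = 0.0401). Kcnh5 (chromosome 12, 75998204 to 76278319, minus strand) had 24, 13, 18 and 21 counts in the aged and 26, 51, 32 and 48 counts in the young mice, or 1.03 ± 0.157 and 2.33 ± 0.561 CPM. The aged and young counts of Kcnh5 came as close as 24 and 26, and the groups did not overlap in counts or CPM. The fold was 2.24 lower (log2 fold change -1.16, SE 0.25, edgeR adjusted p = 0.0460). In limma-voom neither gene was called (adjusted p = 0.175 for Kcnh1 and 0.0676 for Kcnh5).

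The sequences before the start of the 3 genes called lower are shown to compare the regulatory sequence of genes that moved the same way. They are the 250 bases upstream of the RefSeq start on GRCm38.p6, read in the direction of the gene, and capitals mark the GC box GGGCGG, or its reverse complement, the motif bound by Sp1. RefSeq windows were found by symbol for 77 of 108 members.
Kcnk5, chr14:20181783-20182032, minus strand: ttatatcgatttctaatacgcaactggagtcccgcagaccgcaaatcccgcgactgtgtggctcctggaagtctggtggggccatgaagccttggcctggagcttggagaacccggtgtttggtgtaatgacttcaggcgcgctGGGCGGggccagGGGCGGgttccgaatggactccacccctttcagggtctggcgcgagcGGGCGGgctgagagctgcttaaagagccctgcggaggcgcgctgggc
Kcnh1, chr1:192190527-192190776, plus strand: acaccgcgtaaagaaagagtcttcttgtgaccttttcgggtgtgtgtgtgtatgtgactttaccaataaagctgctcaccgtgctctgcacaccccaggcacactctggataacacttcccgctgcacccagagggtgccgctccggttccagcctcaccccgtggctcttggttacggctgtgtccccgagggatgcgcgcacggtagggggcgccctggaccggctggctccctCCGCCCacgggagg
Kcnh5, chr12:75177333-75177582, minus strand: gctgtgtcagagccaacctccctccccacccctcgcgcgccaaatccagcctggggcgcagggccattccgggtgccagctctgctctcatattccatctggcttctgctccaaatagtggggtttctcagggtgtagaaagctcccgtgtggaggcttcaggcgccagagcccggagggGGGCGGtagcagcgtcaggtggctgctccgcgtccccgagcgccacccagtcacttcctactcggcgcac
The GC box was found on either strand in 32.7% of all 250-base windows. Kcnk5 holds 3 copies, starting at -106, -94 and -47 from the start, Kcnh1 holds 1 at -14 and Kcnh5 holds 1 at -70. The GC box was not particular to the genes called lower. In the windows of the genes called higher, which are not printed, it lies at -104 in Kcns1 and at -87 and -17 in Kcnip2. The E-box CACGTG (6.02% of windows), the D-box TTATGTAA (0.819%), the TATA box TATAAA (12.4%) and the cyclic AMP element TGACGTCA (1.55%) were searched on both strands and are in none of the 3 printed windows. The motifs were chosen after the windows had been seen.

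Kcng1, a voltage-gated subunit that forms no channel alone but modifies others, reached the count minimum in the young mice and was left out by the filter of the main test. It had 3, 1, 0 and 4 counts in the 4 aged mice, against 55, 10, 22 and 55 counts in the 4 young mice. Every aged mouse was below every young mouse, with young mouse 2 lowest of the young mice, as for Kcnh1. It reached 10 counts in the 4 young libraries and in no aged library, and was named after its values had been seen, so no test is given.

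Kcns1 (chromosome 2, 163989355 to 163996849, minus strand) is likewise a silent voltage-gated subunit, which modifies other channels. It had 35, 25, 23 and 25 counts in the 4 aged mice, against 8, 11, 11 and 8 counts in the 4 young mice. The level was 1.48 ± 0.227 CPM in the aged and 0.574 ± 0.125 CPM in the young mice, with no overlap. The fold was 2.58 higher in the aged mice (log2 fold change 1.37, SE 0.25, edgeR adjusted p = 0.0361).

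Kcnip2 (chromosome 19, 45866329 to 45890551, minus strand) codes for a calcium-binding accessory subunit of fast transient channels of the Kcnd family. Its level was 14.1, 3.12, 3.85 and 1.80 CPM in the 4 aged mice, against 0.555, 0.688, 0.408 and 0.886 CPM in the 4 young mice. The 4 aged mice were above the young mice, but aged mouse 1 was well above the rest. The fold was 8.92 (log2 fold change 3.16, SE 0.67, edgeR adjusted p = 0.0461). Without aged mouse 1 the log2 fold change was 2.18 (SE 0.34, edgeR adjusted p = 0.0184). Kcnd3, a pore subunit of that family, was at 18.1 ± 7.67 CPM in the aged and 16.2 ± 2.51 CPM in the young mice (log2 fold change 0.15, SE 0.29, edgeR adjusted p = 0.774).

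**Figure D3:**
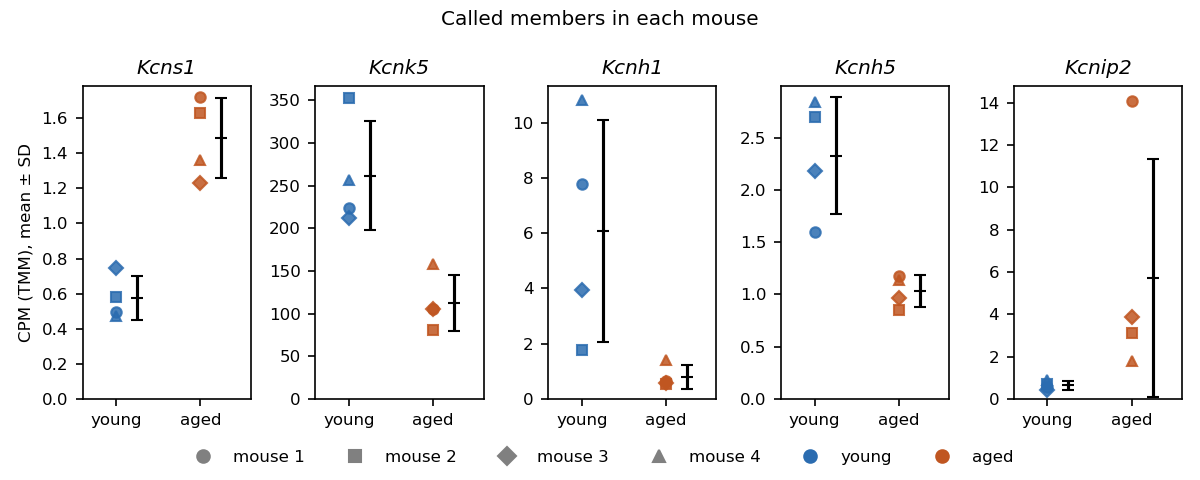
Level in CPM of each called member in each mouse, with the mean and SD of each group of 4; symbols mark the mouse number. The groups do not overlap for any of the 5 genes, and aged mouse 1 is at 14.1 CPM for Kcnip2 where the other aged mice are between 1.80 and 3.85 CPM.

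The inward rectifiers were mostly a little lower in the aged mice without passing the test. This class was singled out after seeing the data. None of 10 tested was called by edgeR, DESeq2 called 1 and limma-voom 0. In edgeR 5 had an unadjusted p below 0.05, all lower, where 12.1% of all genes were lower at that p. The log2 fold change was below 0 for 9 of the 10, with a median of -0.32. Groups did not overlap for 5 of them (50%), Kcnj5, Kcnj10, Kcnj11, Kcnj12 and Kcnj16, all lower, where 18.9% of all genes did not overlap and 10% were lower without overlap. Under library size only, which moved the median of all genes by 0.11, 3 of the 10 were lower without overlap, against 5.06% of all genes, and 2 were lower at an unadjusted p below 0.05, against 6.55%.

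Kcnj16, which pairs with Kcnj10 in the distal convoluted tubule, was at 590, 867, 690 and 900 CPM in the 4 aged mice, against 978, 1000, 991 and 999 CPM in the 4 young mice. The young mice were close to each other, and the aged mice spread more widely below them. The log2 fold change was -0.38 (SE 0.14, edgeR adjusted p = 0.140). Kcnj10 was at 110, 103, 113 and 107 CPM in the aged and 141, 114, 125 and 118 CPM in the young mice, so that aged mouse 3 and young mouse 2 nearly met (log2 fold change -0.20, SE 0.08, edgeR adjusted p = 0.172). The ratio of Kcnj16 to Kcnj10 per length was 10.4 ± 2.32 in the aged and 11.8 ± 1.20 in the young mice (log2 difference -0.20, two-sided exact permutation test, p = 0.286, adjusted p = 0.572 over 4 ratios), and -0.08 without aged mouse 1 (exact permutation p = 0.571).

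Kcnj11, the pore subunit of ATP-sensitive channels, was low, with 4, 11, 10 and 14 counts in the 4 aged mice, against 22, 24, 16 and 28 counts in the 4 young mice. The groups did not overlap, and aged mouse 1 was lowest (log2 fold change -1.29, SE 0.37, edgeR adjusted p = 0.0861). Kcnj11 reached 10 counts in every young library but not in every aged library, as Kcnh1 did. This limits its test and its place among the inward rectifiers without overlap. Kcnj8, the pore subunit of the vascular form, was at 4.96 ± 1.98 CPM in the aged and 7.59 ± 1.49 CPM in the young mice (log2 fold change -0.62, SE 0.28, edgeR adjusted p = 0.209). Kcnj1 was at 211, 251, 314 and 261 CPM in the aged and 338, 268, 286 and 286 CPM in the young mice, which overlapped (log2 fold change -0.18, SE 0.13, edgeR adjusted p = 0.394). Kcnj15 was at 1950, 1390, 1170 and 1790 CPM in the aged and 1740, 1910, 1800 and 1960 CPM in the young mice, with aged mice 2 and 3 below the rest (log2 fold change -0.24, SE 0.17, edgeR adjusted p = 0.386). Kcnj2, Kcnj5, Kcnj12 and Kcnj13 were at most at 24.7 CPM in any mouse.

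**Figure D4:**
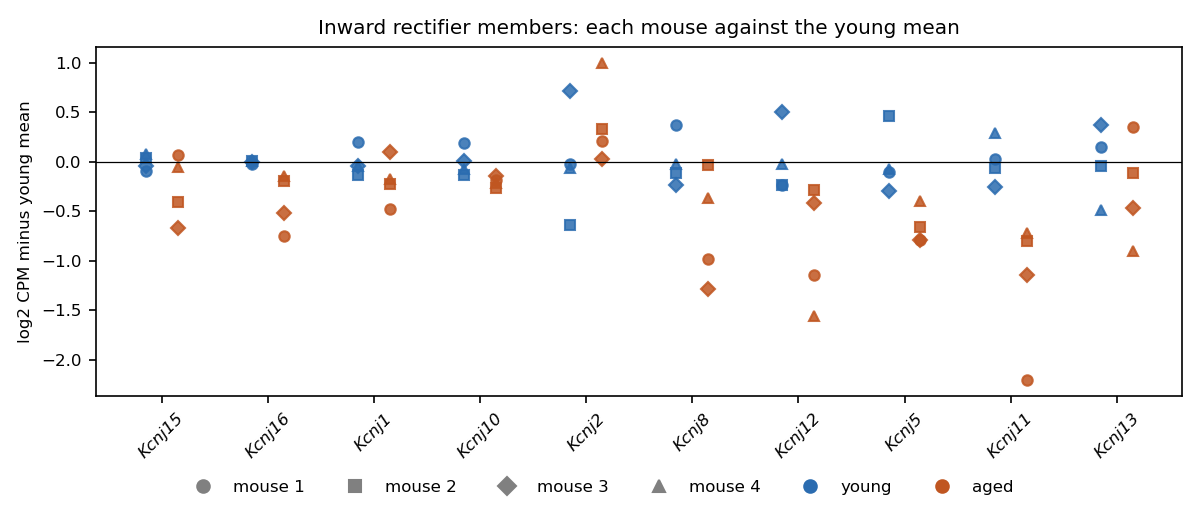
Log2 CPM of each mouse minus the young mean for the 10 inward rectifiers, ordered by CPM, each symbol 1 mouse. The aged mice lie below every young mouse for Kcnj16, Kcnj10, Kcnj12, Kcnj5 and Kcnj11, and overlap the young mice for the other 5.

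No beta subunit or FXYD gene was called. Of 8 tested, 0 passed in edgeR, DESeq2 called 0 and limma-voom 0. In edgeR 2 of the 8 had an unadjusted p below 0.05, where 25.5% of all genes had. Atp1b1 was at 2260, 2090, 2160 and 2520 CPM in the aged and 2940, 2800, 2860 and 2860 CPM in the young mice. Every aged mouse was below every young mouse for Atp1b1, with a fold of 1.27 (log2 fold change -0.34, SE 0.11, edgeR adjusted p = 0.103). The adjusted p was 0.000528 in DESeq2 and 0.0392 in limma-voom, and Atp1b1 was not called there because its fold was under 1.5.

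Fxyd2 was at 735, 1140, 1090 and 1070 CPM in the 4 aged mice, against 1200, 1150, 1220 and 1210 CPM in the 4 young mice. The groups did not overlap, though aged mouse 2 and young mouse 2 were close, and aged mouse 1 lay apart (log2 fold change -0.24, SE 0.14, edgeR adjusted p = 0.309). Without aged mouse 1 the change was -0.12 (SE 0.07, edgeR adjusted p = 0.351). Atp1b2 at 16.7 ± 4.39 and 17.6 ± 1.06 CPM and Atp1b3 at 78.3 ± 10.4 and 80.7 ± 5.98 CPM were near equal in the groups (log2 fold changes -0.08, SE 0.19, and -0.04, SE 0.11), and both turned positive under library size only. Fxyd1, Fxyd4, Fxyd5 and Fxyd6 were between 2.18 and 12.0 CPM, with log2 fold changes of 0.60, -0.29, 0.32 and 0.07, none called by edgeR.

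Several further channels of the tubule were measured. Kcnq1, the voltage-gated channel of the proximal brush border, was at 28.6 ± 1.98 CPM in the aged and 28.9 ± 2.39 CPM in the young mice (log2 fold change -0.02, SE 0.09, positive under library size only and upper-quartile scaling). Its accessory subunit Kcne1 was at 6.19, 10.5, 12.2 and 9.97 CPM in the aged and 14.1, 15, 17.5 and 13.1 CPM in the young mice, with no overlap (log2 fold change -0.62, SE 0.20, edgeR adjusted p = 0.107). Kcnk1, a widely expressed two-pore channel, was at 31.3 ± 14.1 and 35.8 ± 12.4 CPM and overlapped. Kcnma1, the pore of the large-conductance channel that carries flow-dependent secretion in the distal nephron, was at 6.72 ± 2.58 and 6.91 ± 1.22 CPM (log2 fold change -0.03, SE 0.27, positive under library size only and upper-quartile scaling). Kcna10 had 0 counts in every library, which allows at most 3 counts per library. The class gated by calcium or sodium had 8 tested members, counting the accessory subunit Kcnmb1. Of these, edgeR called none, with 1 at an unadjusted p below 0.05, and DESeq2 and limma-voom called none.

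Among the remaining members with the smallest p, Kcnk2, a mechanosensitive two-pore channel, was at 4.57, 5.14, 1.87 and 2.02 CPM in the aged and 1.79, 1.27, 1.5 and 1.06 CPM in the young mice, with no overlap (log2 fold change 1.27, SE 0.38, edgeR adjusted p = 0.0918). Kcnip3, a calcium-binding accessory subunit, was at 4.21 ± 2.18 and 2.01 ± 0.449 CPM (log2 fold change 1.07, SE 0.35, edgeR adjusted p = 0.108). Without aged mouse 1, at 7.42 CPM the highest, the change in Kcnip3 was 0.65 (SE 0.23, edgeR adjusted p = 0.120). Both had groups that did not overlap, and neither was called by edgeR or limma-voom, while DESeq2 called both (adjusted p = 0.0255 for Kcnk2 and 0.0429 for Kcnip3). Kcna3, a channel of lymphocytes, was at 1.11 ± 0.0579 and 0.684 ± 0.146 CPM, also without overlap (log2 fold change 0.70, SE 0.24, edgeR adjusted p = 0.116). Kcna5 was at 1.16 ± 0.608 and 0.447 ± 0.165 CPM and overlapped (log2 fold change 1.37, SE 0.48, edgeR adjusted p = 0.129).

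Aged mouse 1 had the highest level for several members, named after their values had been seen. Kcnk3, an acid-sensitive two-pore channel, was at 18.8 CPM in aged mouse 1 and between 0.827 and 2.21 CPM in the other 7 mice (log2 fold change 2.46, and 0.37 without that mouse). Kcnt1, a sodium-activated channel, was at 30.1 CPM in aged mouse 1 and between 2.14 and 6.26 CPM in the others (log2 fold change 1.13, and -0.65 without it). Fxyd3, under the count minimum, had 54 counts in aged mouse 1 and 0 to 5 counts in the others. In that mouse the summed level of 5 smooth muscle markers was 172 CPM, where the other aged mice had 83.4 to 149 and the young mice 112 to 148. These markers did not move together. Myh11, Rgs5 and Cnn1 were highest in aged mouse 1, while Acta2 was within the range of the other mice. Tagln was at 41.8 CPM there, below the young mice (43.9 to 55.5) and above the other aged mice (16.4 to 40.5). The part of smooth muscle in the results was not tested.

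The genes around the members in distal sodium and potassium handling were not called. Of 25 such genes fixed as a list, 23 were tested, and edgeR called none in either direction, and DESeq2 and limma-voom called none. In edgeR 6 of the 23 had an unadjusted p below 0.05, where 25.5% of all genes had. Their median log2 fold change was 0.02, against 0.03 over all genes tested. Of those at an unadjusted p below 0.05, 3 were higher and 3 lower in the aged mice. Nedd4l had the smallest p of the list and was lower without overlap (log2 fold change -0.38, SE 0.09, edgeR adjusted p = 0.0597). Kl was also lower without overlap (log2 fold change -0.60, SE 0.27, edgeR adjusted p = 0.210). Slc12a3 was higher without overlap (log2 fold change 0.47, SE 0.17, edgeR adjusted p = 0.133). Sgk1, the kinase induced by aldosterone, was at 490, 82.2, 266 and 105 CPM in the aged and 75.4, 69.3, 66.6 and 98.5 CPM in the young mice, overlapping (log2 fold change 1.61, SE 0.51, edgeR adjusted p = 0.103), and 0.96 (SE 0.36, edgeR adjusted p = 0.135) without aged mouse 1. Of the 54 tested markers of cell types, edgeR called 1, the macrophage receptor Csf1r, which was lower (log2 fold change -1.0, SE 0.22, edgeR adjusted p = 0.0472), and DESeq2 and limma-voom called 4 each. The other 5 leukocyte markers had log2 fold changes from 0.13 to 0.57, and the median of that list was 0.39.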

How the data were processed

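RNA-Seq was done on 8 renal cortex libraries of the same strain. The authors depleted ribosomal RNA, made stranded libraries, aligned paired reads to mm9 with TopHat2 and counted them by strand with HTSeq on RefSeq genes; the deposited values are raw counts per gene. Versions of TopHat2 and HTSeq are not given in the sources used here. Each library's own table was read, and 8 columns of a joint table were not used. Groups came from the sample labels. Rows that name no gene were left out. They held 20.0% to 29.9% of the pairs as falling on no gene and 34.3% to 39.1% as aligned to several places. Any 2 libraries differed by a chi-square per gene of at least 9.22 (14047 genes), so all were counted as separate.

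Counts were analyzed in R 4.3.3 with edgeR 4.0.16 (quasi-likelihood, TMM, filterByExpr with minimum count 10, no covariate), all genes together. The standard error was the log2 fold change divided by the square root of F. The study used DESeq, which was not run; DESeq2 1.42.0 and limma 3.58.1 were alternatives, with other scalings and filters, robust fitting, the replicate number as a block, and each mouse left out. CPM used TMM effective library sizes, with a prior count of 2 on the log2 scale. Transcript lengths and coordinates came from GENCODE on NCBIM37, which is mm9. Reported members held no 100-nt windows at 98% identity elsewhere in mm9 (BLAST 2.17.0), except 0.0501% for Kcnk6 and 0.670% for Kcns3. Counts of 13944 genes with 200 changed were simulated from the dispersions that edgeR estimated, without an outlying mouse. At the adjusted p alone edgeR recovered 84.9% with 2.31% false calls, limma-voom 85.9% with 2.29% and DESeq2 91.0% with 17.4%. As the counts were drawn from edgeR's own model, the simulation does not rank the tools on the real data.

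Named genes are the pump members over the count minimum, 12 fixed kidney channels, members with an adjusted p below 0.05, and the 6 further members with the smallest p. Kcng1, Kcnk3, Kcnt1, Kcnd3, Kcnj2, Kcnj12 and Kcnj13 lie outside that rule. The members and lists were chosen with earlier results of these data known, and the shares, the motifs and the settings added for the inward rectifiers after seeing the data. The results of 4 tested members, and 3 of the 4 planned ratios, are not reported here.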

Additional observations from a re-analysis of the deposited data

Results flagged for a closer look

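In 6 of 114 groups of 4 mice a member's highest or lowest mouse lay farther from the others than Dixon's limit of 0.829 of the group's range, where chance gives 5.70. In the aged mice, Fxyd2 was lowest in mouse 1 at 735 CPM, with the others at 1070 to 1140 CPM (0.866), and Fxyd5 was highest in mouse 1 at 10.6 CPM, with the others at 8.55 to 8.65 CPM (0.946). Kcnmb1 was highest in aged mouse 2 at 2.60 CPM, with the others at 0.933 to 1.09 CPM (0.854), and Kcnt2 was highest in aged mouse 2 at 10.5 CPM, with the others at 6.32 to 6.36 CPM (0.988). In the young mice, mouse 2 was highest for Kcnf1 at 1.53 CPM, with the others at 1.17 to 1.22 CPM (0.838), and lowest for Kcnma1 at 5.08 CPM, with the others at 7.48 to 7.56 CPM (0.973). None of these genes was called.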

How the results depend on the processing

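The number of called members, 5, was 11 with DESeq2 (12 at the adjusted p alone), where 6.26% of all genes were called. It was 3 with limma-voom (4 at the adjusted p alone), where 3.46% were called. With at least 10 counts in every library it was 2 (2 at the adjusted p alone), where 1.72% were called. Kcns1, Kcnip2 and Kcnh1 were not tested under that filter. The number was between 5 and 6 under the other scalings, filters and the robust fit. Kcng1, for which no test is given, is counted in the 6 and in the 5 found without a filter, where Kcnh5 was not called. With 1 mouse left out the number called ranged from 0 to 7 (0 to 9 at the adjusted p alone). The 5 called genes kept their direction in every alternative that tested them. DESeq2 gave 2 members no adjusted p. The labels state no pairing by replicate number, and whether the numbers pair the mice was not tested. In their deviations from the group means, same-numbered mice correlated at 0.206, 0.0380, 0.199 and -0.0302. Differently numbered mice correlated at -0.30 to 0.165. With the replicate block 1 member was called, Kcnh1 (1 at the adjusted p alone). For the inward rectifiers, chosen after seeing the data, upper-quartile scaling left 3 and library size only 3 of 10 lower without overlap (5 with TMM), where 7.87%, 5.06% and 10% of all genes were, and library size only left 2 of 10 lower at an unadjusted p below 0.05. Directions turned near 0 under library size only for Atp1b2 (0.04), Atp1b3 (0.07), Kcnq1 (0.10) and Kcnma1 (0.08), and under upper-quartile scaling for Kcnq1 (0.02) and Kcnma1 (0.01). With a mouse left out Atp1b2 ranged from -0.18 to 0.09, Atp1b3 from -0.10 to 0.02, Fxyd6 from -0.15 to 0.50, Kcnk1 from -0.55 to 0.04, Kcnq1 from -0.07 to 0.03 and Kcnma1 from -0.27 to 0.12, and Kcnt1 was -0.65 without aged mouse 1. The cause of these shifts was not tested. The median standard error was 0.36 for members under 5 CPM and 0.13 over 50 CPM. It holds both the counting error and the spread between mice.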
